A study of Mus musculus with 2 samples.

Results

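Cyp2b9-high spots were the spots of the HFD liver section in which Cyp2b9 transcripts made up the largest share of all transcripts. They were chosen by that measured value. All spots over tissue with at least 5000 unique molecular identifiers (UMIs, counted transcripts) were ranked by Cyp2b9 UMIs over total UMIs, and the top 10% were taken, with ties broken by file order. This gave 347 of 3469 ranked spots, out of 3594 spots over tissue in the HFD section and 7286 in both sections of the series. They were compared with the 303 ranked spots that had no Cyp2b9 UMI, called Cyp2b9-zero spots, and 2819 spots lay between. Transcripts were captured with 10x Visium: a fresh-frozen section of 10 µm lies on a slide whose spots carry barcodes, and each spot is a small region that can hold several cells. The HFD section came from 1 male C57BL/6J mouse on a high-fat diet, and the NCD section from 1 male C57BL/6J mouse of the control group. Mice were bought at 5 weeks of age, kept on NCD or HFD for 14 weeks, and then given distilled water by mouth each day for 8 weeks in both groups. No transgene or other agent is described for either mouse.

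The labels name the tissue as liver but also give a hematopoietic stem cell line and an immune cell type. Hepatocyte markers (Alb, Apoa1, Apoa2, Apoc3, Ttr, Rbp4, Trf and Serpina1c) made up 129945 CPM (UMIs per 1000000 UMIs of the pooled spots) in Cyp2b9-high spots and 139227 CPM in Cyp2b9-zero spots. Hematopoietic stem cell markers (Kit, Cd34, Procr, Slamf1, Flt3 and Mecom) made up 7.73 and 12.5 CPM, and the leukocyte marker Ptprc 11.1 and 12.5 CPM. Hepatocyte transcripts were thus abundant in both groups of spots, and those of hematopoietic stem cells were few. Macrophage markers, among immune cells, were at 644 and 707 CPM. With 1 section per diet there was no replicate, so no test was possible and no p-value is given. All 95% intervals are exact and cover counting error only, and spots of a section are not replicates of a mouse.

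Cyp2b9 belongs to the Cyp2b family of cytochromes P450, haem enzymes of the endoplasmic reticulum that oxidise drugs, steroids and other lipophilic compounds. In mouse liver Cyp2b9 and its neighbour Cyp2b13 are known for higher expression in females, under control of growth hormone, whereas Cyp2b10 is the classical target of the nuclear receptor CAR (Nr1i3). Hepatocytes differ along the liver lobule. Those around the central vein carry most P450 and glutamine synthetase activity, and those around the portal vein carry most urea cycle and gluconeogenic activity.

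Cyp2b9 (ENSMUSG00000040660) lies on the plus strand of chromosome 7 from 26173411 to 26210661 in GENCODE M21 on GRCm38. Its relatives Cyp2b10 (25897620 to 25926624), Cyp2b13 (26061497 to 26096197), Cyp2a4 (26307169 to 26315088) and Cyp2a5 (26835305 to 26843548) lie near it on the same strand. The RefSeq promoters (GRCm38.p6, 250 bases before to 50 after the start) of the Cyp2b genes that were measured are shown because these genes are the closest relatives with UMIs in these spots. Capitals mark bases within the aligned stretch that differ from the Cyp2b9 promoter or that it lacks. Bases outside that stretch, as at the start of the Cyp2b10 promoter, stay in lower case. The windows are chr7:26173159-26173458 for Cyp2b9, chr7:26061245-26061544 for Cyp2b13 and chr7:25897408-25897707 for Cyp2b10, all on the plus strand.
Cyp2b9: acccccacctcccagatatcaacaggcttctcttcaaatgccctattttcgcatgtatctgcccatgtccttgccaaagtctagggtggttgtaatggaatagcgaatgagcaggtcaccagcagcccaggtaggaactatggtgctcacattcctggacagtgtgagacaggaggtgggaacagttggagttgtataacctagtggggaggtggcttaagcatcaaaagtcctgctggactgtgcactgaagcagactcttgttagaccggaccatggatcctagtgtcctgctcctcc
Cyp2b13: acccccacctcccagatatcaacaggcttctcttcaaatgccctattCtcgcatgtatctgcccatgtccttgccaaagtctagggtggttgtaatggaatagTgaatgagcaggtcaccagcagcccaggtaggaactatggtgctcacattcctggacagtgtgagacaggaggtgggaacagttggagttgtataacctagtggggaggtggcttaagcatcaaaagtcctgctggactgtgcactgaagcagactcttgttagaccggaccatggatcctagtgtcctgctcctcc
Cyp2b10: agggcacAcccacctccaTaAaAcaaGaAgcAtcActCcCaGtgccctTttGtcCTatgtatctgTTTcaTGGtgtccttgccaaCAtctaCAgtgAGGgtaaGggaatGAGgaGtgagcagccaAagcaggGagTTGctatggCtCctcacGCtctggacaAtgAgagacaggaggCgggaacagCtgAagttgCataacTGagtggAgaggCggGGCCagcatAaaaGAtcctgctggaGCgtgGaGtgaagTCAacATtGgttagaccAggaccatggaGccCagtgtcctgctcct

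The Cyp2b9 and Cyp2b13 promoters were 99.3% identical over 300 bases and differed by T48C and C104T, counted from 1 at the 5′ end with the Cyp2b9 base first. Cyp2b9 and Cyp2b10 were 77.2% identical over 289 aligned bases. The letters AGGTCA, the half-site that many nuclear receptors recognise, were found once on the plus strand of the Cyp2b9 and Cyp2b13 promoters, at -138 from the start, and on neither strand of the Cyp2b10 promoter. Of 32817 RefSeq promoters of this length, 16.3% held these letters on either strand. The letters TATAAA, TTCNNNGAA (a STAT5 core) and CCAAT were found in neither the Cyp2b9 nor the Cyp2b13 promoter, and 13.6%, 8.29% and 37.4% of all promoters held them. Such matches describe letters in a window and are not binding sites. The transcripts were less alike than the Cyp2b9 and Cyp2b13 promoters. Cyp2b9 was 91.9% identical to Cyp2b13 and 87.5% to Cyp2b10, and no other gene shared a stretch of 90 bases with its last 500 bases. Cyp2a4 and Cyp2a5 transcripts were 98.3% identical and shared such stretches, so the split of reads between this pair is uncertain.

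The values that chose the spots are given as a description. Each Cyp2b9-high spot held 2 to 17 Cyp2b9 UMIs with a median of 7. Its level per spot was 348 CPM at the lowest, 416 CPM at the median and 1104 CPM at the highest. Cyp2b9 was widespread in the section, since 3166 of 3469 ranked spots had at least 1 UMI. Pooled, it was at 435 CPM (418 to 453) in Cyp2b9-high spots and 166 CPM (163 to 169) in all ranked spots. The exact interval of 0 UMIs in the Cyp2b9-zero spots reached 0.889 CPM. The last spot inside the threshold had 4 Cyp2b9 UMIs of 11506 (347.6 CPM) and the first outside had 3 of 8638 (347.3 CPM).

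Few counts per spot decided the choice, and this can be seen in both depth and repeatability. The median depth was 15728 UMIs in Cyp2b9-high spots, 11851 in Cyp2b9-zero spots and 20651 in the spots between. The shallowest of 3 equal groups of spots by depth held 159 (45.8%, 40.5 to 51.2) of the Cyp2b9-high spots and 207 (68.3%, 62.8 to 73.5) of the Cyp2b9-zero spots. Both extremes were thus shallower than the rest, most of all the zero spots. The UMIs of each spot were then split at random into a choosing set and a held-out set of equal size. The 347 top spots of the choosing set held 513 CPM of Cyp2b9 in it and 256 CPM (237 to 275) in the held-out set. The 858 spots with 0 Cyp2b9 UMIs in the choosing set held 142 CPM (133 to 151) in the held-out set, a ratio of 1.80 (1.64 to 1.99).

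**Figure D1:**
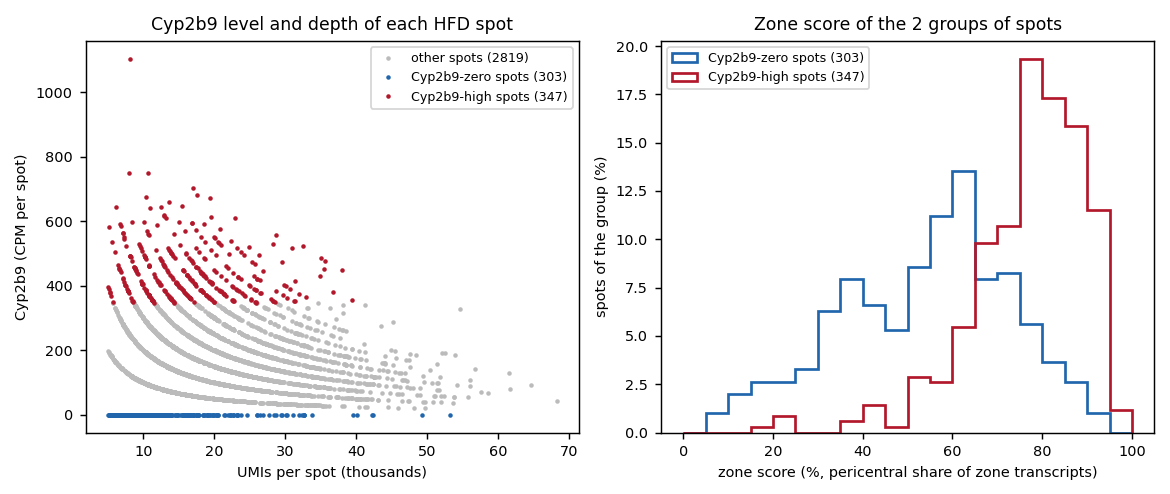
The left panel shows each of the 3469 ranked HFD spots by its UMIs and its Cyp2b9 level (CPM per spot), with Cyp2b9-high spots in red, Cyp2b9-zero spots in blue and the others in grey; the bands are spots with the same whole number of Cyp2b9 UMIs. The right panel shows the zone score of the 347 high and 303 zero spots in percent of each group, with medians of 79.0% and 57.3%.

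In pooled ratios the relatives of Cyp2b9 did not move as one family. Cyp2b13, the closest in sequence, was higher in Cyp2b9-high spots, and Cyp2b10 was near the limit of counting in both groups. Cyp2a4 did not differ beyond counting error when pooled, but its ratio varied with depth and zone. For Cyp2b13 (ENSMUSG00000040583), 296 UMIs in Cyp2b9-high spots against 59 in Cyp2b9-zero spots gave 52.0 and 14.2 CPM, a log2 ratio of 1.87 (1.46 to 2.30). Per spot it ran from 0 to 444 CPM in Cyp2b9-high spots and from 0 to 361 CPM in Cyp2b9-zero spots, with a median of 0 in both, so the groups overlapped. A Cyp2b13 UMI was found in 43.8% of Cyp2b9-high and 14.9% of Cyp2b9-zero spots, and in 21.6% and 7.59% in the same spots with 5000 UMIs drawn at random from each. The difference in shares was therefore seen at equal depth too.

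Cyp2b10 (ENSMUSG00000030483) had 10 UMIs in Cyp2b9-high and 6 in Cyp2b9-zero spots, 1.76 and 1.45 CPM, a log2 ratio of 0.28 (-1.32 to 2.02). This interval is wide on both sides of 0, so a difference was not detectable at this depth. Cyp2a4 (ENSMUSG00000074254), a steroid hydroxylase gene that is also known as female-biased, had 58 and 50 UMIs, 10.2 and 12.0 CPM, a log2 ratio of -0.24 (-0.81 to 0.33). Cyp2a5 (ENSMUSG00000005547), the coumarin hydroxylase gene closest to Cyp2a4 in sequence, behaved differently. It was at 543 CPM in Cyp2b9-high and 138 CPM in Cyp2b9-zero spots, a log2 ratio of 1.97 (1.84 to 2.10). Per spot it ran from 0 through a median of 379 to 2104 CPM in Cyp2b9-high spots, and from 0 through 103 to 1413 CPM in Cyp2b9-zero spots. The ranges overlapped, and 84.7% of Cyp2b9-high spots lay above the median of the Cyp2b9-zero spots.

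Of the other Cyp2a and Cyp2b genes, Cyp2a22 was higher (55.9 and 33.0 CPM, log2 ratio 0.76, 0.47 to 1.06) but not in every zone group (-0.58, -0.09 and 0.25, described below), and Cyp2a12 was slightly lower (386 and 479 CPM, -0.31, -0.40 to -0.22). Cyp2b19 and Cyp2b23 had 0 UMIs in both groups. The same picture came from choosing the top 10% of spots by each relative in turn. Unrelated sets of this size would share about 10% of their spots. Among the 347 Cyp2b9-high spots, 100 (28.8%, 24.1 to 33.9) were also in the top 10% for Cyp2a5 and 80 (23.1%, 18.7 to 27.9) in that for Cyp2b13. The overlap was 82 (23.6%, 19.3 to 28.5) for Glul, which encodes glutamine synthetase. It was 45 (13.0%, 9.62 to 17.0) for the lipid droplet coat gene Plin2 and 35 (10.1%, 7.13 to 13.7) for Cyp2a4, and both intervals hold 10%. For Cyp2b10 it was 27 (7.78%, 5.19 to 11.1), but 210 of its own top spots had no Cyp2b10 UMI and were placed by file order.

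Across all genes with at least 200 UMIs over both groups, 105 of 4341 (2.42%) were at least 1.5-fold higher in Cyp2b9-high spots and 99 (2.28%) were at least 1.5-fold lower. The median log2 ratio of these genes was 0.04. These shares are the background for the counts below, in which higher and lower mean at least 1.5-fold. The genes named were those with the highest and lowest ratio among 596 genes that had 500 or more UMIs and kept 1 direction in CPM per spot, after drawing down and in each of 3 zone groups. The spots were chosen by Cyp2b9 share alone, and the ratios of other genes are a description of these spots.

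The 15 highest genes were led by those of pericentral hepatocytes. Oat, which encodes ornithine aminotransferase, was at 2063 CPM in Cyp2b9-high and 484 CPM in Cyp2b9-zero spots, a log2 ratio of 2.09 (2.02 to 2.16). Per spot Oat ran from 0 through a median of 1245 to 9766 CPM in Cyp2b9-high spots, and from 0 through 345 to 6975 CPM in Cyp2b9-zero spots. The ranges overlapped widely, with 87.0% of Cyp2b9-high spots above the median of the others. Glul was at 978 and 250.6 CPM, a log2 ratio of 1.96 (1.87 to 2.06). Cyp2e1, the ethanol-oxidising P450 and the most abundant of the named pericentral genes in UMIs, was at 8327 and 3492 CPM (1.254, 1.23 to 1.28). Its values per spot ran from 1133 through 7962 to 16483 CPM in Cyp2b9-high spots, and from 244 through 3741 to 11566 CPM in Cyp2b9-zero spots. Lhpp, a phosphohistidine phosphatase gene next to Oat on chromosome 7 (132610638 to 132706420), was at 118 and 34.2 CPM (1.79, 1.52 to 2.06).

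Other P450 genes made up a further group of the 15. The Cyp2c genes among the 15, all on chromosome 19, had log2 ratios of 1.72 for Cyp2c37, 1.45 for both Cyp2c50 and Cyp2c38, and 1.19 for Cyp2c29. They were named for high ratios and do not describe the other Cyp2c genes. Cyp2c29, an epoxygenase gene and known CAR target, was at 437 CPM in Cyp2b9-high and 192 CPM in Cyp2b9-zero spots, with medians per spot of 371 and 170 CPM. The Cyp2c genes are close paralogs, and the major urinary protein gene Mup17 (1.44) on chromosome 4 also has close paralogs, so their split is uncertain. Gm13775 (1.62) lies between Mup17 and Mup20 on chromosome 4, and its likeness to these genes was not tested. Gstm2, a glutathione transferase gene, was at 174 and 67.7 CPM (1.36, 1.17 to 1.56). Also among the 15 were Acot1 (1.02), an acyl-CoA thioesterase gene, and Fitm1 (0.94), which encodes a fat storage protein.

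The 15 lowest genes mixed periportal hepatocyte genes with genes of other cells. Spp1, the osteopontin gene of bile duct cells and lipid-associated macrophages, was at 65.2 CPM in Cyp2b9-high and 287 CPM in Cyp2b9-zero spots, a log2 ratio of -2.14 (-2.31 to -1.97). Its median per spot was 38.9 CPM in Cyp2b9-high and 123 CPM in Cyp2b9-zero spots, and its highest spot held 552 and 7108 CPM. A few spots thus carried very high Spp1 among the zero spots. Gsn, the gelsolin gene, had a median of 0 CPM in both groups and pooled levels of 44.8 and 168 CPM (-1.91, -2.12 to -1.70). Crip1 (-1.38), Tmsb10 (-0.88) and the MHC class II gene H2-Eb1 (-0.86) are likewise known from cells other than hepatocytes.

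Among the periportal genes, Cyp2f2 was at 295 and 681 CPM, a log2 ratio of -1.21 (-1.295 to -1.12), and 12.7% of Cyp2b9-high spots lay above the median of Cyp2b9-zero spots. The aldehyde dehydrogenase gene Aldh1b1 (-1.42) and Hsd17b13 (-0.86), which encodes a lipid droplet protein, were also lower. The metallothionein genes Mt1 (433 and 893 CPM, -1.05, -1.12 to -0.97) and Mt2 (63.6 and 139 CPM, -1.12) went together. Serpina1e (-1.74) and Mup20 (-0.88) are secreted male-biased proteins. Mup20 was at 6637 and 12173 CPM, with spots from 1643 through 6272 to 18218 CPM in the Cyp2b9-high group and from 999 through 10697 to 26918 CPM in the Cyp2b9-zero group. Serpina1e, Mup20 and their paralogs are also families whose reads can be split between copies. Tstd1 (-1.22) and the acute phase gene Lcn2 (-0.88) were also among the 15.

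**Figure D2:**
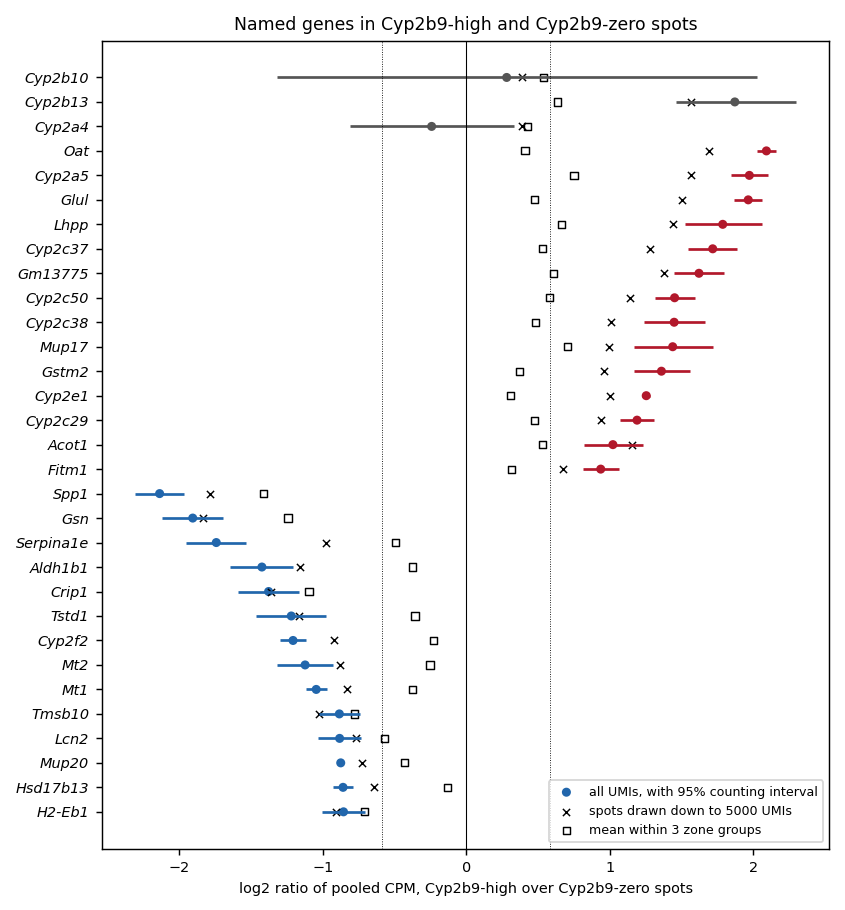
Points show the log2 ratio of pooled CPM in the 347 Cyp2b9-high over the 303 Cyp2b9-zero spots for the relatives (grey) and for 14 each of the 15 highest (red) and 15 lowest genes (blue), with 95% counting intervals as bars, and dotted lines mark 1.5-fold. By the rule that named the highest and lowest genes, their crosses (spots drawn down to 5000 UMIs) keep their side. Squares (mean within 3 zone groups) of the highest and lowest genes lie nearer to 0, such as 0.41 for Oat against 2.09. Those of Cyp2b10 (0.54 against 0.28) and Cyp2a4 (0.43 against -0.24) do not.

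Position along the lobule went with the choice of spots. A zone score was computed per spot as the percent of pericentral UMIs (Glul, Oat, Cyp2e1 and Cyp1a2) among all UMIs of these genes and of the periportal genes Cyp2f2, Pck1, Sds, Hal and Hsd17b13. Its median was 79.0% in Cyp2b9-high and 57.3% in Cyp2b9-zero spots. Ranked spots were put into 3 equal groups by this score. The highest group held 249 of 347 Cyp2b9-high spots (71.8%, 66.7 to 76.4) and 53 of 303 Cyp2b9-zero spots (17.5%, 13.4 to 22.2). The lowest group held 12 (3.46%, 1.80 to 5.96) and 114 (37.6%, 32.1 to 43.3). Most Cyp2b9-high spots were thus pericentral in transcripts, while Cyp2b9-zero spots lay all along the score.

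Within these groups the ratios of most hepatocyte genes were smaller, and the 15 highest genes kept their direction in each by the rule that named them. For Oat the log2 ratio was 0.18, 0.23 and 0.81 from the lowest to the highest group, and for Glul 0.53, 0.00 and 0.89, though both genes are part of the score. Genes outside the score gave 0.91, 0.47 and 0.87 for Cyp2a5, 1.23, 0.29 and 0.38 for Cyp2b13, and 0.72, 0.16 and 0.55 for Cyp2c29. Among the lowest genes, Spp1 kept -1.50, -0.87 and -1.87 and Gsn -0.92, -1.46 and -1.35, while Aldh1b1 came to -0.22, -0.45 and -0.46. Spp1 and Gsn thus stayed past 1.5-fold in every zone group, and so did Crip1 (-1.13, -0.93 and -1.24). The lowest group rests on 12 Cyp2b9-high spots.

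Along the score in all ranked spots, in 10 groups from the periportal to the pericentral end, pooled Cyp2b9 went from 106 CPM (99.9 to 112) to 271 CPM (259 to 284). Cyp2b13 had a steeper slope, from 2.40 CPM in the first group to 83.1 CPM in the last, and so had Cyp2a5, from 36.2 to 958 CPM. Cyp2c29 went from 78.4 to 558 CPM, and Nr1i3, which encodes CAR, from 59.9 to 167 CPM. Cyp2a4 ran the opposite way, from 20.3 to 8.66 CPM, and Cyp2b10 stayed between 1.05 and 2.93 CPM. Cyp2b9 was thus found throughout the lobule, with a share of spots with a UMI of 93.9% in the first group and 96.8% in the last. The median depth of these groups was 30819 and 18047 UMIs, so these shares are not at equal depth. HFD spots off tissue held Cyp2b9 at 137 CPM (122 to 153), and the part of such free RNA in these levels was not tested.

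**Figure D3:**
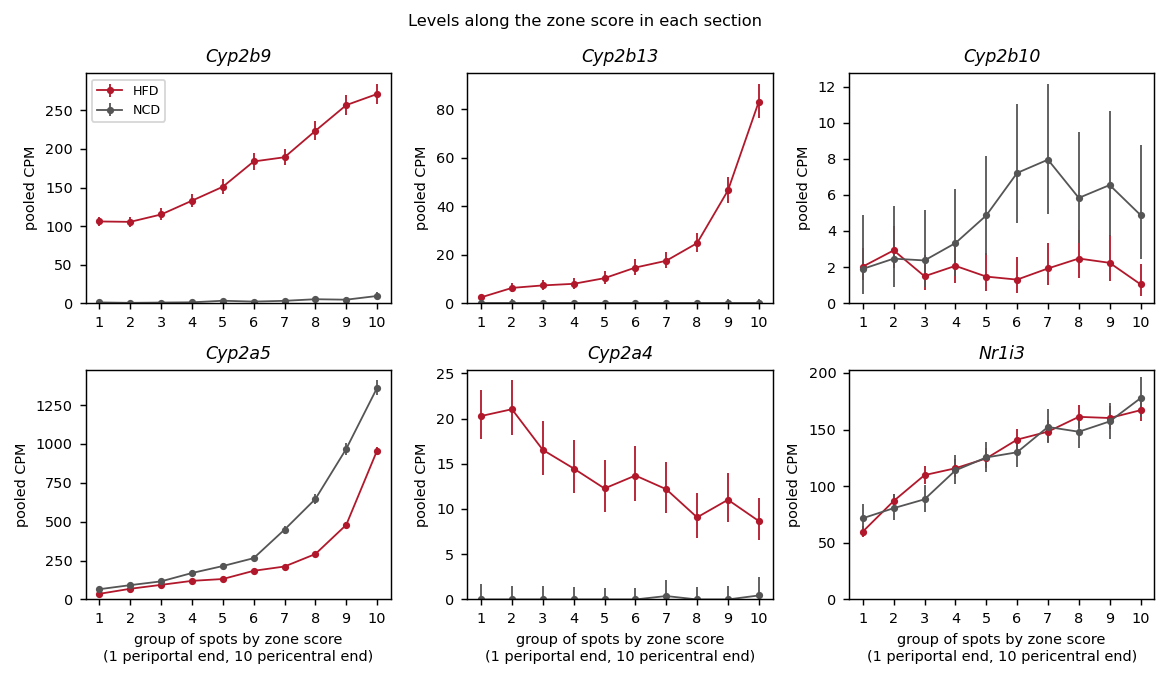
Each panel shows the pooled CPM of 1 gene in 10 groups of spots by zone score, from the periportal (1) to the pericentral end (10), in the HFD (red) and NCD section (grey), with 95% counting intervals. In the HFD section Cyp2b9 ends at 271 CPM and Cyp2b13 at 83.1 CPM, Cyp2a4 falls along the score to 8.66 CPM, and in the NCD section Cyp2b9 ends at 9.33 CPM.

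The gene lists gave the same order when whole pathways were counted, and all lists are shown in the plot of list totals. Of 17 pericentral genes, 11 passed the minimum of 200 UMIs and 10 of these were higher, with a median log2 ratio of 1.54. The list was at 13162 CPM in Cyp2b9-high and 4969 CPM in Cyp2b9-zero spots (1.41, 1.38 to 1.43). Beyond the named genes, the ammonium transporter gene Rhbg (2.14, 1.61 to 2.71), the glutamate transporter gene Slc1a2 (2.02, 1.80 to 2.26) and Cyp1a2 (1.54, 1.301 to 1.79) had the highest ratios. Cyp7a1, the rate-limiting enzyme of bile acid synthesis, was the 1 tested member within 1.5-fold (0.48, 0.19 to 0.77). Of the Wnt target genes under the minimum, Axin2 had 3.69 and 1.45 CPM (log2 ratio 1.35, -0.01 to 2.95) and Lgr5 5.62 and 1.45 CPM (1.96, 0.68 to 3.51). All 16 periportal genes passed the minimum and 9 were lower, with a median of -0.75. The lowest were Aldh1b1 and the serine dehydratase gene Sds (both -1.42), and the urea cycle gene Cps1 was at 635 and 1020 CPM (-0.68, -0.75 to -0.62). Pck1 (-0.13), G6pc (-0.02) and Apoa4 (0.03), genes of gluconeogenesis and of lipoproteins, stayed within 1.5-fold.

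Of the genes known as targets of CAR or its relative PXR, 12 of 17 passed the minimum, 5 were higher and none was lower, with a median of 0.37. The 5 were Cyp2c29, Gstm3 (0.99, 0.76 to 1.22), Cyp3a11 (0.82, 0.77 to 0.87), the P450 reductase gene Por (0.68, 0.57 to 0.80) and the carboxylesterase gene Ces2a (0.61, 0.36 to 0.85). Gsta1 was at 42.9 and 60.7 CPM (-0.50, -0.76 to -0.24), and Alas1, which starts haem synthesis, at 621 and 453 CPM (0.46, 0.38 to 0.54). No gene of 12 tested nuclear receptors and regulators passed 1.5-fold. Nr1i3 came closest at 164 and 113 CPM (0.54, 0.37 to 0.70), and Nr1i2, which encodes PXR, had 45.0 and 39.0 CPM (0.20, -0.09 to 0.50). Within the zone groups the ratio of Nr1i3 was -0.03, 0.13 and -0.03. The summed list of CAR and PXR targets, at 0.65 in all, came to 0.09, 0.19 and 0.23 there.

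Genes with a known sex bias in mouse liver did not move with Cyp2b9 as a group. Only 4 of 22 female-biased genes passed the minimum. Acot3, an acyl-CoA thioesterase gene, was higher (73.6 and 33.3 CPM, 1.15, 0.87 to 1.43), and Cyp17a1, a steroid hydroxylase gene, was lower (25.5 and 50.6 CPM, -0.99, -1.31 to -0.68). Cyp3a16, Cyp3a41a, Cyp3a41b and Cyp3a44 had 0 UMIs. Hao2, a hydroxyacid oxidase gene under the minimum, had 81 and 19 UMIs (14.2 and 4.58 CPM), and Hamp2, a hepcidin gene, was at 136 and 178 CPM (-0.39). Of 15 tested male-biased genes, Elovl3 (1.08), Cyp7b1 (0.95) and Cyp2d9 (0.65) were higher, and Serpina1e, Mup20, Egfr (-0.61) and C8b (-0.59) were lower. The summed level of the male-biased list was lower (11031 and 17288 CPM, -0.65), which rests mostly on Mup20, as the median over genes was -0.16. None of 6 tested genes of the growth hormone axis passed 1.5-fold, with Ghr, the receptor gene, at 0.26 (0.16 to 0.37) and Stat5b at -0.02 (-0.38 to 0.35).

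Lipid genes gave different counts by list. Of 12 tested lipid droplet genes 5 were higher and none was lower, with Cidea (288 and 83 UMIs, 1.34, 0.98 to 1.71), Fitm1, Cidec (0.81), G0s2 (0.75), an inhibitor of lipolysis, and Fabp4 (0.67). Plin2, the abundant coat protein of droplets, was at 754 and 643 CPM (0.23, 0.16 to 0.30). Of 14 tested targets of the fatty acid receptor PPARα, Acot1, Acot4 (0.75) and the fatty acid hydroxylase gene Cyp4a14 (0.66) were higher and none was lower. Fatty acid synthesis genes gave 2 higher (Elovl6 and Me1) and 1 lower (Acly, -0.71) of 15 tested, and none of 11 cholesterol synthesis genes passed 1.5-fold. Of 10 bile acid genes, Cyp7b1, Cyp27a1 (0.79) and the uptake transporter gene Slco1b2 (0.63) were higher. For Cidea the ratio was 0.03, 0.39 and 0.09 within the zone groups. The summed lipid droplet list, at 0.43 in all, came to 0.13, 0.07 and 0.17 there. The summed PPARα target list, at 0.39 in all, came to 0.15, 0.14 and 0.20.

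Among acute phase and stress genes, those past 1.5-fold were lower and most were within it. Of 14 tested acute phase genes 4 were lower and none was higher, namely Lcn2, Saa2 (-0.82), Saa1 (-0.79) and the haem carrier gene Hpx (-0.63). The summed acute phase list was at -0.41, and at -0.08, -0.05 and -0.19 within the zone groups. Of 7 oxidative stress genes only Mt1 and Mt2 were lower. Their weight put the summed level at -0.57, whereas the median over genes was 0.02. Endoplasmic reticulum chaperones, mitochondrially encoded genes and p53 target genes had no member past 1.5-fold among 11, 12 and 5 tested. The stress transcription factor gene Ddit3 was at 25.3 and 41.0 CPM (-0.70, -1.03 to -0.37). It was the 1 lower gene of 4 tested for amino acid stress. Of 6 tested epithelial injury genes, Cd63 (-0.94), S100a11 (-0.76) and Ly6d (-0.73) were lower, and of 14 phase II conjugation genes only Gstm2 was past 1.5-fold.

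**Figure D4:**
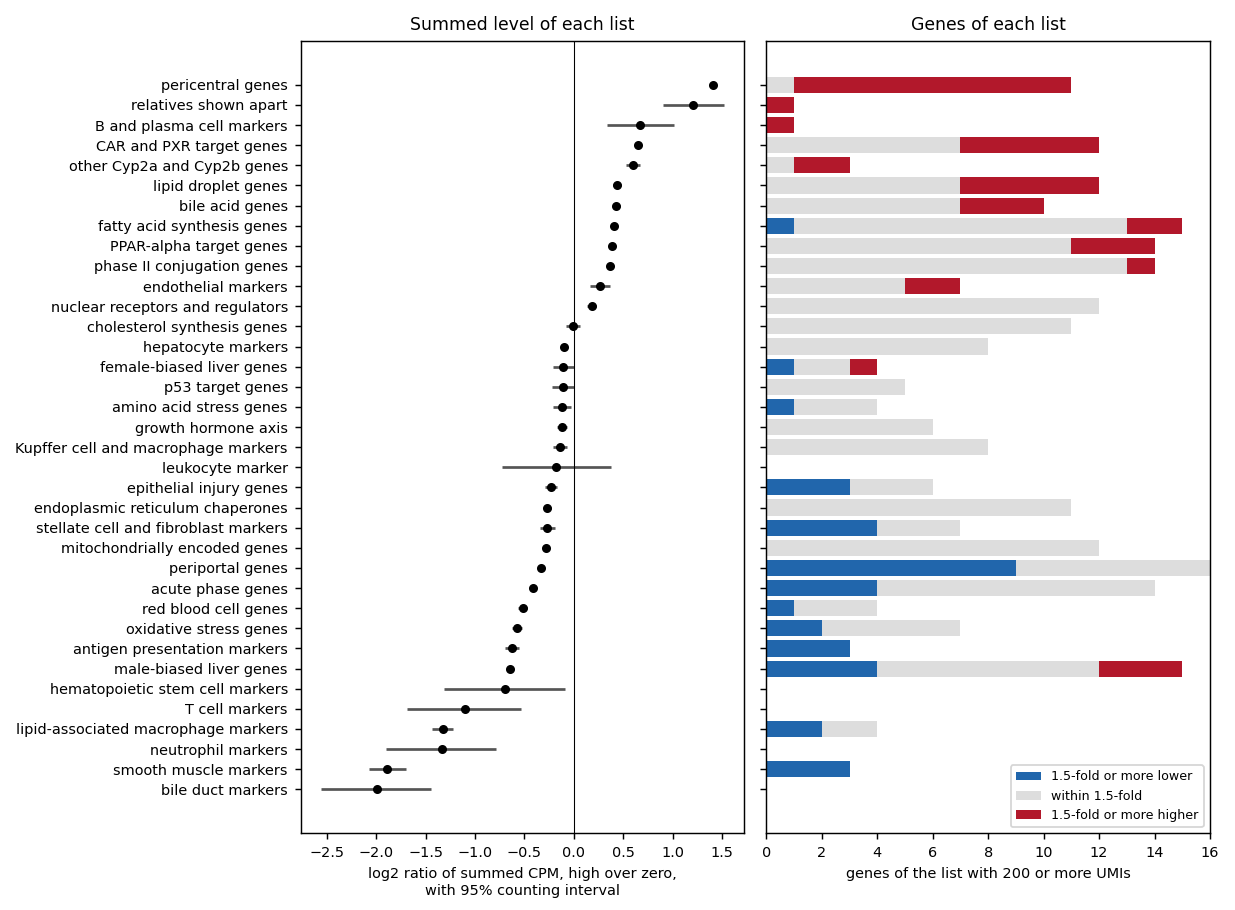
The left panel shows the log2 ratio of summed CPM in Cyp2b9-high over Cyp2b9-zero spots for each gene list with its 95% counting interval, from bile duct markers (-1.99) to pericentral genes (1.41). The right panel counts the genes of each list with 200 or more UMIs that were at least 1.5-fold lower (blue), within 1.5-fold (grey) or at least 1.5-fold higher (red), such as 10 of 11 pericentral genes higher.

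Markers of other cells differed between the groups of spots, and their part in the results above was not tested. Smooth muscle markers (Acta2, Myh11, Tagln, Cnn1 and Myl9) made up 57.6 CPM in Cyp2b9-high and 213 CPM in Cyp2b9-zero spots (-1.89, -2.07 to -1.70), and the 3 members tested were lower. Bile duct markers (Epcam, Krt7, Krt19, Sox9 and Cldn7) made up 6.68 and 26.5 CPM (-1.99, -2.56 to -1.45), all under the minimum of 200 UMIs. For both lists the median spot held 0 CPM in both groups, and the highest smooth muscle spot held 4898 CPM in the Cyp2b9-high and 6326 CPM in the Cyp2b9-zero group. A small number of spots thus carried most of these transcripts. Lipid-associated macrophage markers were lower (191 and 479 CPM, -1.33), mostly through Spp1, and Trem2 was at 9.31 and 18.6 CPM. Col1a1 (-1.10), Col1a2 (-1.16), Col3a1 (-0.77) and Lum (-0.92) were lower among 7 tested stellate cell and fibroblast genes, while Dcn was not (0.12, 0.01 to 0.22).

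Markers of Kupffer and endothelial cells were closer to even, while those of several other immune cells were not. Kupffer cell and macrophage markers gave 0 of 8 tested past 1.5-fold (644 and 707 CPM, -0.14, -0.21 to -0.07). Of 7 tested endothelial markers, Stab2 (0.68, 0.36 to 1.02) and Oit3 (0.60, 0.28 to 0.92) were higher. Antigen presentation genes H2-Aa, H2-Ab1 and Cd74 were lower (-0.59 to -0.66). T cell markers made up 7.73 and 16.6 CPM (-1.10, -1.68 to -0.54) and neutrophil markers 7.73 and 19.5 CPM (-1.34, -1.90 to -0.79), from 44 UMIs each in Cyp2b9-high spots. Within the zone groups T cell markers were at -0.57, -0.62 and 0.36, so their direction turned in the highest group. Neutrophil markers were at -2.12, -0.49 and -0.33 there. Red blood cell genes were at 1254 and 1797 CPM (-0.52, -0.57 to -0.47), with 1 of 4 lower. Igkc, of plasma cells, was higher (27.9 and 17.3 CPM, 0.69, 0.28 to 1.11), but its ratio turned between the zone groups (2.99, -1.90 and 1.52). The B and plasma cell markers that include it had a median of 0 CPM per spot in both groups and a highest spot of 3223 CPM in the Cyp2b9-high group. Fewer cells of a type and less RNA per cell cannot be told apart in such spots.

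Without the 173 spots richest in smooth muscle and bile duct markers (5% of ranked spots, of which 8 were Cyp2b9-high and 38 Cyp2b9-zero), an alternative chosen after seeing the data, the lower genes moved most. The count of lower genes was 64 of 4131 tested, against 99 of 4341, and that of higher genes 95. Gsn came to -0.92 from -1.91, H2-Eb1 to -0.37, Tmsb10 to -0.48 and Crip1 to -0.94. The hepatocyte genes hardly moved, with Oat at 2.04, Cyp2a5 at 1.93, Cyp2b13 at 1.82 and Cyp2f2 at -1.25. Spp1 was at -1.83. The summed stellate cell and fibroblast markers turned from -0.27 to 0.07, and the smooth muscle markers came to -0.75 from -1.89.

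All 3469 spots were also grouped at equal depth, which brings in the spots between the extremes. Every spot was drawn down to 5000 UMIs, and spots were then grouped by the Cyp2b9 UMIs left, which gave 1527 spots with 0, 1167 with 1, 522 with 2 and 253 with 3 or more. Oat went from 723 CPM through 979 and 1277 to 1542 CPM along these groups, Cyp2a5 from 203 to 413 CPM and Cyp2e1 from 4217 to 7166 CPM. Of the 15 highest genes 13 stepped up at each group, and of the 15 lowest 12 stepped down. These genes were named from the same spots, in part for their direction after drawing down, so such counts were largely set in advance. No share over all genes is given beside them. Cyp2b13 was at 18.6, 22.1, 36.8 and 36.4 CPM, and Spp1 at 195, 148, 112 and 93.3 CPM. Cyp2a4 showed no such order, at 13.1, 15.8, 11.9 and 15.8 CPM, and Cyp2b10 lay between 0.857 and 2.37 CPM. With all UMIs and the Cyp2b9-zero spots as the lowest group, none of the 15 highest genes stepped up at each group. The zero spots, shallow at a median of 11851 UMIs, held more Oat (484 CPM) than the spots with the next lowest Cyp2b9 share (411 CPM), whose median was 23850 UMIs.

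**Figure D5:**
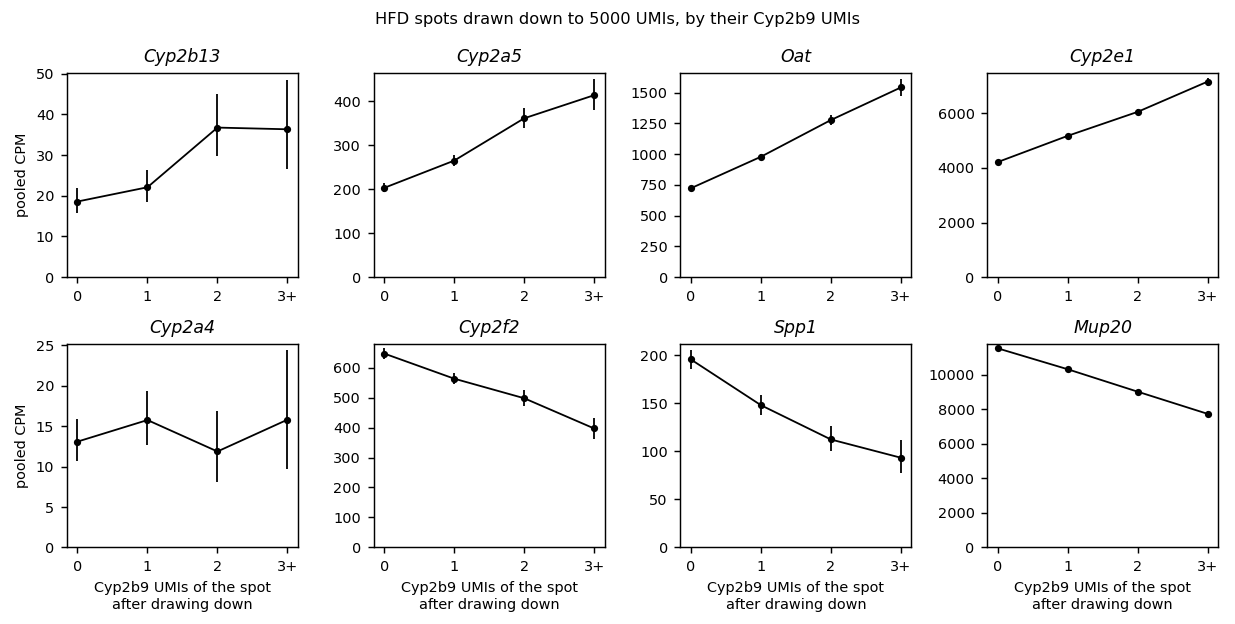
Each panel shows the pooled CPM of 1 gene in HFD spots drawn down to 5000 UMIs and grouped by their remaining Cyp2b9 UMIs (0, 1, 2, 3 or more; 1527, 1167, 522 and 253 spots), with 95% counting intervals. Oat goes from 723 to 1542 CPM and Mup20 from 11515 to 7726 CPM, while Cyp2a4 has no order.

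The NCD section, which the choice did not use, had too little Cyp2b9 for the same ranking. It held 77 Cyp2b9 UMIs in 1695 spots with at least 5000 UMIs, 3.002 CPM (2.37 to 3.75), and 97 of its 170 top spots had none. Its 73 spots with a Cyp2b9 UMI were therefore set against its 1622 spots without, at median depths of 16618 and 11983 UMIs. The 15 highest genes of the HFD section were all higher in NCD spots with Cyp2b9, by log2 ratios of 0.27 to 0.82 with a median of 0.56, and all 15 intervals excluded 0. Oat was at 3021 and 2038 CPM (0.57, 0.52 to 0.61) and Cyp2a5 at 674 and 411 CPM (0.71, 0.615 to 0.81). The 15 lowest were all lower, by -1.16 to -0.21, and 12 intervals excluded 0. This split matched neither depth nor zone score, and no share over all NCD genes is given beside these counts. The same split in the HFD section, of spots with against without a UMI, gave 0.88 (0.82 to 0.95) for Oat and 0.81 (0.69 to 0.93) for Cyp2a5.

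The relatives differed between the sections. Cyp2b13 had 0 UMIs in the ranked NCD spots, and Cyp2a4 had 2, against 1451 and 1051 in the ranked HFD spots. Cyp2b10 had 8 UMIs in NCD spots with Cyp2b9 and 116 in those without, 5.79 and 4.78 CPM (0.28, -0.97 to 1.302). Along the zone score of the NCD section Cyp2b9 went from 0.950 CPM (0.115 to 3.43) in the first group to 9.33 CPM (5.77 to 14.3) in the last. The pericentral side thus held more Cyp2b9 in both sections. Section, animal, slide and diet cannot be told apart, so no difference between the sections is assigned to diet.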

How the data were processed

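The data were 10x Visium libraries of 1 liver section per diet group (NCD and HFD). UMI counts were deposited by the authors as gene-by-spot matrices with no normalization, for all spots and for those called over tissue, and the processing notes name Space Ranger 1.3.1 and build mm10. The annotation release is not given in the sources used here; of 32285 gene identifiers, 32158 were in GENCODE M21 (GRCm38), which gave positions and transcripts, and promoters came from RefSeq. Spot positions and images were not used here.

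The members, gene lists and tests were chosen with earlier results of these data known. UMIs were summed over spots and divided by all their UMIs (CPM). The total was 5691614 UMIs in the 347 Cyp2b9-high and 4150014 in the 303 Cyp2b9-zero spots, which sets the counting precision. Intervals at the 95% level were exact Poisson (sums), Clopper-Pearson (shares) and conditional binomial (ratios), and zero counts were bounded by 3 counts. Genes needed 200 UMIs over both groups to be counted at 1.5-fold. Named genes were Cyp2b10, Cyp2b13 and Cyp2a4, all list members, and the 15 highest and 15 lowest ratios among genes with 500 or more UMIs and 1 direction in CPM per spot, drawn down to 5000 UMIs (seed 1) and in 3 zone groups; 1 of the highest and 1 of the lowest, counted among the 15, are not reported here. Means within zone groups used 0.5 as a pseudocount. Scripts ran in Python 3.11.15 with scipy 1.17.1, Biopython 1.88, numpy 2.4.6, pandas 2.3.3 and matplotlib 3.10.9, and the ratio script was tested on simulated data. Alternatives changed the depth, the share of spots taken, the comparison spots, ties, weighting, total, gene minimum and fold.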

Additional observations from a re-analysis of the deposited data

Results flagged for a closer look

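Cyp2b9 was also measured in spots that the comparison did not use. In the 1398 HFD spots off tissue, with a median of 1175.5 UMIs per spot, it was at 137 CPM (122 to 153, from 298 UMIs), above the 1.38 CPM that a count of 0 allows and near the 166 CPM of the ranked spots over tissue. In the 125 HFD spots over tissue under 5000 UMIs it was at 154 CPM (118 to 198, from 60 UMIs). In the 1300 NCD spots off tissue it was at 2.33 CPM (1.33 to 3.78, from 16 UMIs), near the 3.002 CPM of the ranked NCD spots. Subtracting the profile of the spots off tissue kept all 44 genes and lists past 1.5-fold in the main comparison past it and in the same direction.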

How the results depend on the processing

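No paired analysis was possible because each diet group has 1 section. Counting error, not replicates, set the precision, and the depth of 2 to 17 Cyp2b9 UMIs per Cyp2b9-high spot limits how well spots can be told apart. The counts of genes at least 1.5-fold higher and lower were 105 and 99 of 4341 tested. They became 47 and 34 (of 1854 tested) with spots chosen first and then drawn down to 5000 UMIs. With spots chosen after drawing down they were 34 and 52 of 4146. Against all other spots they were 166 and 334 of 10041, as more genes passed the minimum. With spots chosen on 0.5 of the UMIs and genes measured on the rest 66 of 4331 genes were higher. As the mean within 3 zone groups 55 of 4341 were higher and 145 lower. That mean gives each zone group equal weight, and the lowest group holds only 12 Cyp2b9-high spots. Without the 5% of spots richest in smooth muscle and bile duct markers, chosen after seeing the data, 64 of 4131 were lower. With genes of 50 or more UMIs the counts were 332 and 489 of 8705 tested, and with 1000 or more 37 and 27 of 1191. Of 4341 genes, 498 and 318 passed the lower of the other fold thresholds, and 31 and 33 passed 2-fold.

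Neutrophil markers (log2 ratio 0.0052) and hematopoietic stem cell markers (0.0673) turned from lower to higher with spots chosen after drawing down, and the cause was not tested. Of the 44 genes and lists past 1.5-fold, 42 kept their direction under that alternative and all 44 under the 13 others. Among these 44, the 15 highest and 15 lowest genes were named for 1 direction in CPM per spot, drawn down and in each zone group. Their direction under the matching alternatives was thus fixed by the rule that named them. Fewest stayed past 1.5-fold as the mean within 3 zone groups (15 of 44, with 28 moved by over 1.5 times) and with spots chosen after drawing down (27 of 44). The alternatives with 10000 or more UMIs per spot, the top 5% and reversed ties kept all 44 past it.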
